A study of Mus musculus with 25 samples.

Results

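Background cDNAs of SRSF7 crosslinking were described by setting 7 libraries made from UV-irradiated P19 cells, a mouse embryonal carcinoma line, against 3 libraries made without UV. These 10 are the libraries, of 25 in the series, that were precipitated with anti-EGFP from cells carrying a GFP-tagged SRSF7 and that have a no-UV partner. They were chosen by title. The UV libraries were WT UV 2, 3 and 4 (genotype label SRSF7-GFP OE), mutZn UV 3 and 4 (SRSF7mutZn-GFP) and D27aa UV 1 and 2 (SRSF7D27aa-GFP). The no-UV libraries were WT no-UV 1, mutZn no-UV 1 and D27aa no-UV 1, from the same genotypes. All cells therefore carried a tagged protein. Apart from OE in the WT genotype label, the labels name no promoter, clone or expression level of the transgenes. Each no-UV condition has 1 library, so within a protein the control has no replicate. Per the submitters' design text, libraries of a tagged protein are biological replicates, 2 to 3 of them, and WT UV 3 and 4 carry the same replicate number in their file headers. No annotation of build mm9, in which the positions are given, was used here, so windows carry coordinates without gene names and marker genes of P19 cells were not checked.

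SRSF7 is an SR protein, with an RNA recognition motif and a zinc knuckle that contact RNA, and it takes part in splicing, 3' end formation and export of mRNA. In iCLIP, UV light forms covalent bonds between a protein and the RNA it touches, the protein is precipitated under stringent washes, and reverse transcription often stops at the peptide left on the crosslinked nucleotide. The cDNA end then marks that nucleotide. Without irradiation no such bond is made, so the cDNAs of a no-UV library are a sample of the RNA that comes through the procedure by other routes.

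The deposited files list nucleotides with the number of cDNAs that end there, called events below. On the 22 chromosomes used, the UV libraries held 221521, 1098442 and 3949479 events for WT UV 2, 3 and 4, against 88997 for WT no-UV 1. The 2 mutZn UV libraries held 11774078 and 6431982 events, against 66644 without UV. For D27aa the totals were 376536 and 388411 with UV, against 34916 without. A no-UV library thus had 40.2%, 8.10% and 2.25% of the events of WT UV 2, 3 and 4, 0.566% and 1.04% of those of mutZn UV 3 and 4, and 9.27% and 8.99% of those of D27aa UV 1 and 2. Totals also follow from how deeply a library was sequenced, so these percentages are ratios of library size and not measured backgrounds. To compare composition, each UV library was thinned at random to the total of the no-UV library of its protein, and all counts below are at that equal depth unless called unthinned. A value in CPM is events per 1000000 events of the thinned library. At this depth 3 events, the number that a count of 0 still allows, are 33.7 CPM for WT, 45.02 for mutZn and 85.9 for D27aa. Such limits and the intervals given below for ratios of counts cover counting error only.

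Libraries that stand apart were looked for first, with a dispersion index that is 1 when a pair of libraries differs by counting noise alone (windows of 20000 nt, all libraries thinned to 34916 events). The index was 1.01 between the mutZn UV libraries, 1.09 between the D27aa UV libraries and 1.11 between WT UV 3 and 4. WT UV 2 stood apart from its group, at 1.92 against WT UV 3 and 1.99 against WT UV 4, and it lay closer to D27aa UV 1 (1.59). The 7 pairs of a UV library and its own no-UV library had a median of 1.99 and a range of 1.18 to 2.62, and the 16 UV pairs of different proteins a median of 2.00. WT no-UV 1 was at 2.09 or more from each of the other 9 libraries. mutZn no-UV 1 was at 1.18 and 1.30 from mutZn UV 3 and 4, and D27aa no-UV 1 was nearer to WT UV 4 (1.17) than to D27aa UV 1 and 2 (1.81 and 1.99). Of the 34093 nucleotides with an event in D27aa no-UV 1, 31.3% also had one in the unthinned WT UV 4, which is 3.29 times the level 1 or 2 nt away. The other pairs of a no-UV library with another library had 0.903 to 1.33 times that level. D27aa no-UV 1 and WT UV 4 carry the same library identifier in their file headers, with the barcodes GGTC and GGTT. Values of D27aa no-UV 1 are therefore not a settled background of D27aa, and the count of windows that passed is given below also without it.

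**Figure D1:**
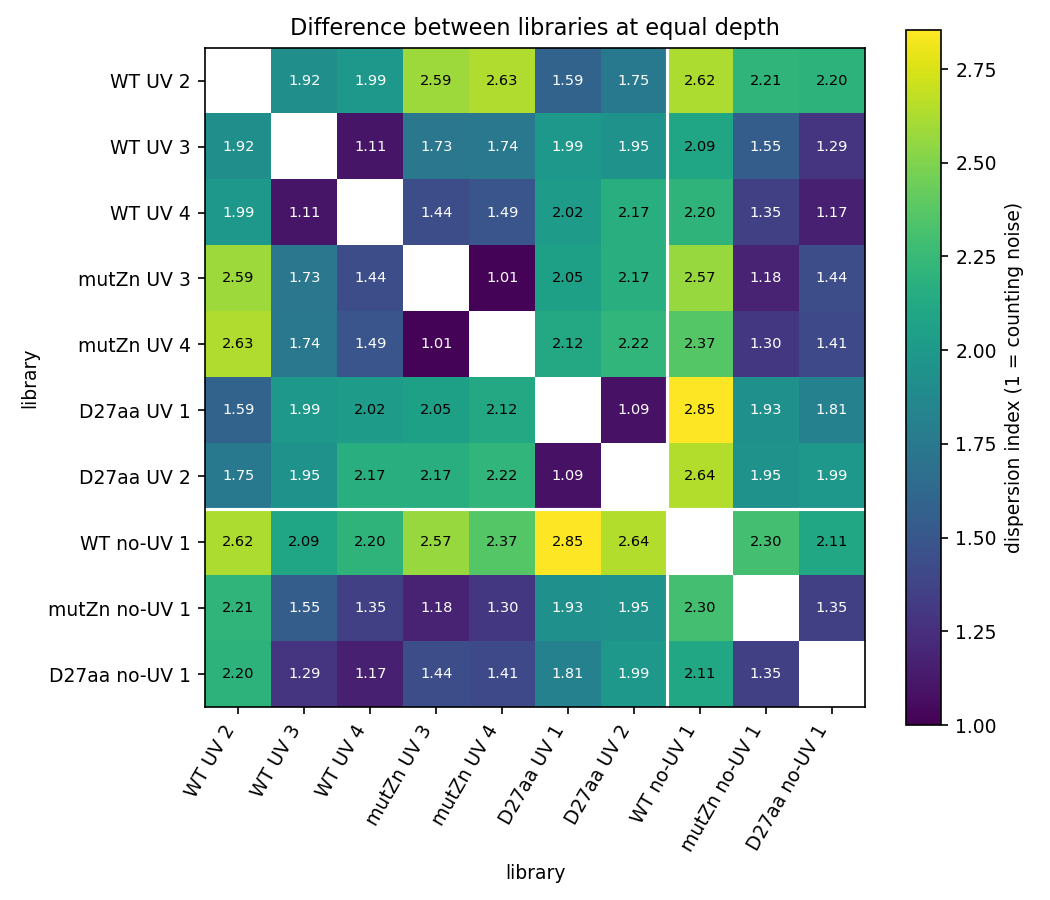
Dispersion index of each pair of the 10 libraries at 34916 events a library, with libraries on both axes, UV libraries left of and above the white lines and no-UV libraries right of and below them. A value of 1 is counting noise, replicate pairs other than those with WT UV 2 lie at 1.01 to 1.11, and WT no-UV 1 lies at 2.09 or more from every other library.

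The library identifiers in the file headers, called runs below, do not hold the groups evenly. They follow the replicate numbers of the headers, and whether each is a sequencing run was not established. Run 1 held mutZn UV 3, WT no-UV 1 and mutZn no-UV 1, run 2 held WT UV 2 and D27aa UV 1 with no control, and run 3 held WT UV 3, WT UV 4, mutZn UV 4, D27aa UV 2 and D27aa no-UV 1. Within a run, a protein can be set against its own control only for mutZn in run 1 and D27aa in run 3. For WT, UV and run cannot be told apart.

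The first comparison asked which loci hold a larger or smaller share of events with UV in all 3 proteins. No window passed the test in either direction with the thinning used throughout, and 1, lower with UV, passed with another thinning seed. Of 143794 windows of 5000 nt and 1 strand with any event at equal depth, 200 held at least 10 events on average over the UV or over the no-UV libraries and were tested with limma-voom, with protein and UV as terms. These windows held 6.45% to 8.71% of the events of a UV library and 7.30% to 10.6% of those of a no-UV library. At an adjusted p under 0.05 there were 0 windows higher with UV (0.0%) and 0 lower (0.0%), with a smallest adjusted p of 0.186. At an unadjusted p under 0.05 there were 26, 3 of them higher and 23 lower with UV. limma-trend also gave 0, a quasi-Poisson fit gave 6, all lower with UV, and leaving out D27aa no-UV 1 gave 0. Counting each position once before thinning, which lowers deep libraries by construction, gave 41 of 162 windows, all lower with UV. Counting positions once after thinning gave 0 of 173. Without WT UV 2 the fit gave 2, both lower with UV, and no alternative gave a window that was higher.

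The window called by the most alternatives, 5, was 97960001 to 97965000 of chromosome 13, minus strand. It was chosen after its values were seen. It held 3, 22 and 12 events in WT UV 2, 3 and 4, against 119 in WT no-UV 1. mutZn UV 3 and 4 held 7 and 5, against 5 without UV, and D27aa UV 1 and 2 held 2 and 3, against 4 without. WT lay far below its control, at 0.104 times (95% counting interval 0.0696 to 0.151), while the intervals of mutZn (0.394 to 4.35) and D27aa (0.135 to 3.15) include 1. The log2 fold change was -2.89 ± 0.80 (SE, limma-voom adjusted p = 0.186), with an adjusted p of 0.00463 under another thinning seed and of 0.00144 to 0.977 over all alternatives. It was 0.046 without WT no-UV 1, so its difference rests on that library, and 0.25 with the run as a term.

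The median log2 fold change, UV over no UV, was -0.16 over the 200 windows, with 122 below 0 and 78 above. Trimmed mean scaling moved that median to 0.01, so directions of small differences depend on the scaling. The 95% interval of a window reached a median of 0.69 to each side on the log2 scale. It lay within 2-fold in both directions for 92 windows, and its upper end stayed below a 4-fold increase for 194. The missed threshold does not show that shares were equal. Within run 1, mutZn UV 3 over mutZn no-UV 1 had a median log2 ratio of -0.10, and within run 3, D27aa UV 2 over D27aa no-UV 1 had -0.30.

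A window passed the filter when either group averaged 10 events, and this fixes part of the direction. Both groups reached 10 events in 122 windows, of which 75 had a log2 fold change below 0 and 47 above, with a median of -0.12. Of the 34 windows that passed through the UV libraries only, 31 were above 0, and all 44 that passed through the no-UV libraries only were below 0. A window that passes through 1 group only has to be higher there, so the counts of windows below and above 0 support no direction.

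Direction was also read library by library. A window in which all 7 UV libraries lay above the no-UV library of their own protein was not found (0 of 200, 0.0%), while all 7 lay below in 13 (6.5%), of which 6 had passed the filter through the no-UV libraries only. Most windows were mixed, with 49 having 3 of 7 UV libraries above. Nearest to all 7 above were 6 of the 200 windows with 6 of 7 above. In 1 window 0 of 7 lay below, and ties kept it from all 7 above. In CPM the 7 UV and the 3 no-UV libraries did not overlap in 1 window (0.5%), and there UV was lower. This was 180255001 to 180260000 on the minus strand of chromosome 1, with 10, 18 and 15 events in WT UV 2, 3 and 4, 13 and 8 in mutZn UV 3 and 4 and 4 and 4 in D27aa UV 1 and 2. The no-UV libraries held 21, 14 and 8 events there for WT, mutZn and D27aa, and the log2 fold change was -0.54 ± 0.28 (SE, limma-voom adjusted p = 0.474). It was chosen after its values were seen. In unthinned events, all 7 UV libraries exceeded their own no-UV library in 163 of the 200 windows. Unthinned UV libraries are deeper than their controls, so this count supports no direction.

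**Figure D2:**
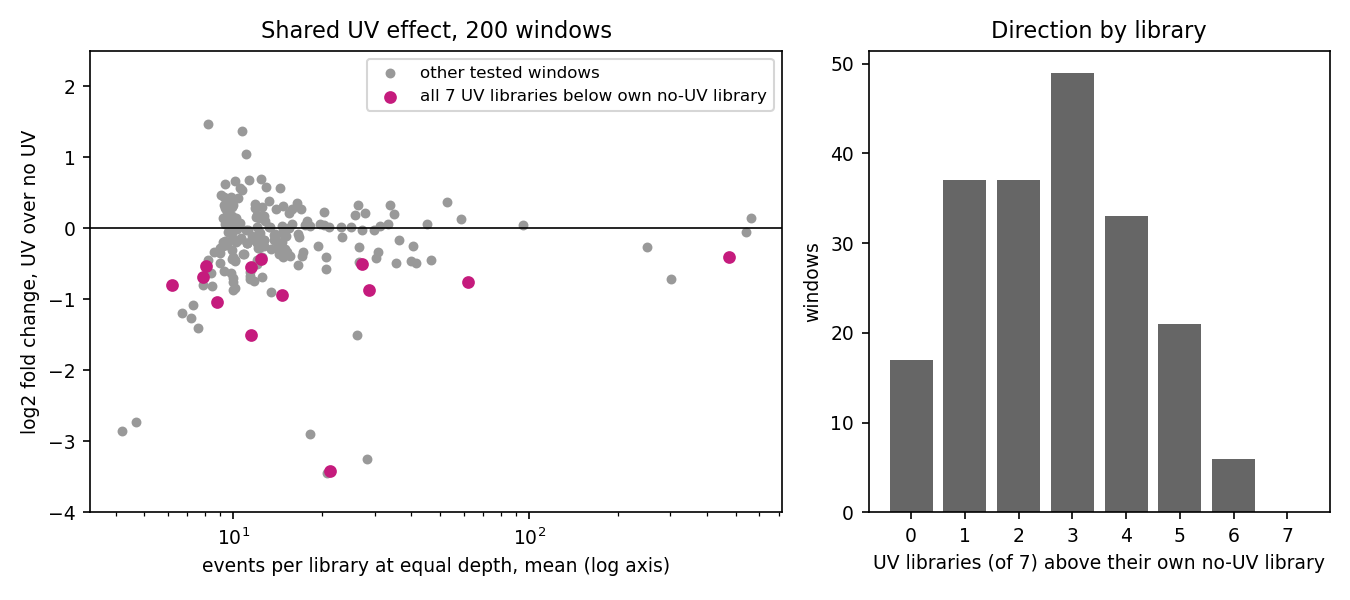
Left, log2 fold change of UV over no UV (limma-voom) against the mean events of a library at equal depth (log axis) for the 200 tested windows, with the 13 in which all 7 UV libraries lay below their own no-UV library in colour. Right, number of windows by how many of the 7 UV libraries lay above their own no-UV library, with 0 windows at 7 and 17 at 0, where a tie counts as not above.

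The 10 windows with the most no-UV events were named by rule whatever their test. Since their no-UV counts chose them, values lower with UV are favoured among them, and their direction is given as a description. They held 2.62% to 4.17% of the events of a UV library and 3.27% to 5.19% of those of a no-UV library. The first of them lay on chromosome 17, plus strand, 39980001 to 39985000. It held 424, 759 and 562 events in WT UV 2, 3 and 4, against 941 in WT no-UV 1. mutZn UV 3 and 4 held 370 and 429, against 435 without UV, and D27aa UV 1 and 2 held 217 and 281, against 298 without. All 7 UV libraries lay below their own control, the nearest of them by 6 events. The window averaged 6551 ± 1324 CPM with UV (SD, n = 7) and 8545 ± 2023 CPM without (SD, n = 3), a log2 fold change of -0.40 ± 0.22 (SE, limma-voom adjusted p = 0.497). The adjacent window (39985001 to 39990000) had the same direction in all 7 libraries, with 29, 99 and 84 events against 126 in WT, 53 and 63 against 73 in mutZn and 21 and 27 against 44 in D27aa. Its log2 fold change was -0.75 ± 0.35 (SE, limma-voom adjusted p = 0.362).

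A pair of adjacent windows on the minus strand of chromosome 19 held many events with UV and without. The first (5795001 to 5800000) held 775, 691 and 613 events in the WT UV libraries, against 735 in WT no-UV 1. mutZn UV 3 and 4 held 556 and 509 events, against 680 without UV, and D27aa UV 1 and 2 held 286 and 309, against 234 without. WT lay on both sides of its control, mutZn below and D27aa above. The log2 fold change was -0.05 ± 0.18, with a 95% interval from -0.44 to 0.34 (SE, limma-voom adjusted p = 0.931). This interval is the narrowest among the 10 windows. The second (5800001 to 5805000) held 531, 325 and 236 events against 510 in WT, 145 and 185 against 225 in mutZn and 139 and 110 against 93 in D27aa. Its log2 fold change was -0.27 ± 0.28 (SE, limma-voom adjusted p = 0.812).

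The mitochondrial chromosome was high in the no-UV library of WT alone. In its first 5000 nt on the plus strand, WT UV 2, 3 and 4 held 264, 369 and 326 events, against 1088 in WT no-UV 1. The mutZn UV libraries held 226 and 210 events, against 201 without UV, and the D27aa UV libraries 103 and 114, against 111 without. The UV libraries of WT thus lay at 0.294 times their control (95% counting interval 0.269 to 0.321), mutZn at 1.08 times (0.916 to 1.29) and D27aa at 0.977 times (0.774 to 1.24). The shared log2 fold change was -0.71 ± 0.32 (SE, limma-voom adjusted p = 0.362) and became 0.048 without WT no-UV 1. As a share of all events, the mitochondrial chromosome made up 0.339%, 0.493% and 0.456% in the WT UV libraries, against 1.34% in WT no-UV 1. It made up 0.440% and 0.396% in the mutZn UV libraries, against 0.401% without UV, and 0.335% and 0.384% in the D27aa UV libraries, against 0.384% without. Over all 22 chromosomes, an exact two-sided permutation test of the share found 0 with an adjusted p under 0.05 and 0 with an unadjusted p under 0.05, at a smallest p of 0.1. With each position counted once before thinning, the smallest exact permutation p was 0.00833, reached by the mitochondrial chromosome (difference -0.292 percentage points, UV minus no UV). That setting lowers deep libraries by construction. The smallest p was 0.0476 without WT UV 2 and 0.0278 without D27aa no-UV 1, and no adjusted p fell under 0.05 (exact permutation tests). Chromosomes other than the mitochondrial one differed by at most 0.158 percentage points in their means.

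A window on the minus strand of chromosome 17 (80600001 to 80605000) lay above its control in WT and D27aa and below it in mutZn. It held 1369, 921 and 747 events in WT UV 2, 3 and 4, against 656 in WT no-UV 1, and 386 and 348 in D27aa UV 1 and 2, against 265 in D27aa no-UV 1. The mutZn UV libraries held fewer than their control, 267 and 230 against 409. WT lay at 1.54 times its control (95% counting interval 1.42 to 1.68), D27aa at 1.39 times (1.20 to 1.60) and mutZn at 0.608 times (0.532 to 0.694). The interaction of protein and UV did not pass (limma-voom, unadjusted p = 0.0491, adjusted p = 0.662), and the shared log2 fold change was 0.15 ± 0.27 (SE, limma-voom adjusted p = 0.873). The mutZn direction is also that within run 1, at a log2 ratio of -0.61 for mutZn UV 3 over its control, and the D27aa direction that within run 3, at 0.39. Among the 10 windows, the UV libraries of 1 protein all above and those of another all below their control were seen in 6. How often this occurs over all tested windows was not counted, so the 6 are a description.

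2 further windows had shared log2 fold changes near 0, with UV libraries on both sides of their controls. On the minus strand of chromosome 9 (78020001 to 78025000) the WT UV libraries held 207, 116 and 85 events, against 131 without UV, the mutZn UV libraries 62 and 78, against 84, and the D27aa UV libraries 70 and 70, against 50. On the minus strand of chromosome 7 (67115001 to 67120000) they held 83, 64 and 71 events against 71 in WT, 65 and 75 against 73 in mutZn and 32 and 32 against 23 in D27aa. The log2 fold changes were 0.04 ± 0.29 for the chromosome 9 window and 0.14 ± 0.20 for the chromosome 7 window (SE, limma-voom adjusted p = 0.982 and 0.871).

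2 windows were prominent in WT no-UV 1 and low in the UV libraries of WT. On chromosome 15, plus strand, 72735001 to 72740000, WT UV 2, 3 and 4 held 7, 0 and 0 events, against 156 in WT no-UV 1. mutZn UV 3 and 4 held 0 and 1, against 6 without UV, and D27aa UV 1 and 2 held 8 and 10, against 24 without. All 7 UV libraries lay below their control, at 0.0150 times for WT (95% counting interval 0.00592 to 0.0316), 0.0833 times for mutZn (0.00181 to 0.687) and 0.375 times for D27aa (0.192 to 0.721). The shared log2 fold change was -3.41 ± 0.94 (SE, limma-voom adjusted p = 0.186), and -1.50 without WT no-UV 1 (adjusted p = 0.878). It passed in the quasi-Poisson fit (adjusted p = 0.00876) and with limma-voom over the 2710 windows of at least 3 events on average (adjusted p = 0.00422), and its adjusted p over the alternatives ranged from 0.00422 to 0.969. In unthinned events, WT UV 2, 3 and 4 held 16, 2 and 2, against 156 without UV, although WT UV 4 had 3949479 events in all. mutZn UV 3 and 4 held 51 and 42 unthinned events, against 6, and D27aa UV 1 and 2 held 83 and 173, against 24. At equal depth the no-UV library was thus the highest library of its protein in all 3 proteins. On the minus strand of chromosome 18 (73690001 to 73695000) the counts were 20, 36 and 4 against 204 in WT, 2 and 0 against 5 in mutZn and 5 and 5 against 1 in D27aa. Its log2 fold change was -3.25 ± 0.92 (SE, limma-voom adjusted p = 0.186), and 0.22 without WT no-UV 1, so its difference rests on that library.

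**Figure D3:**
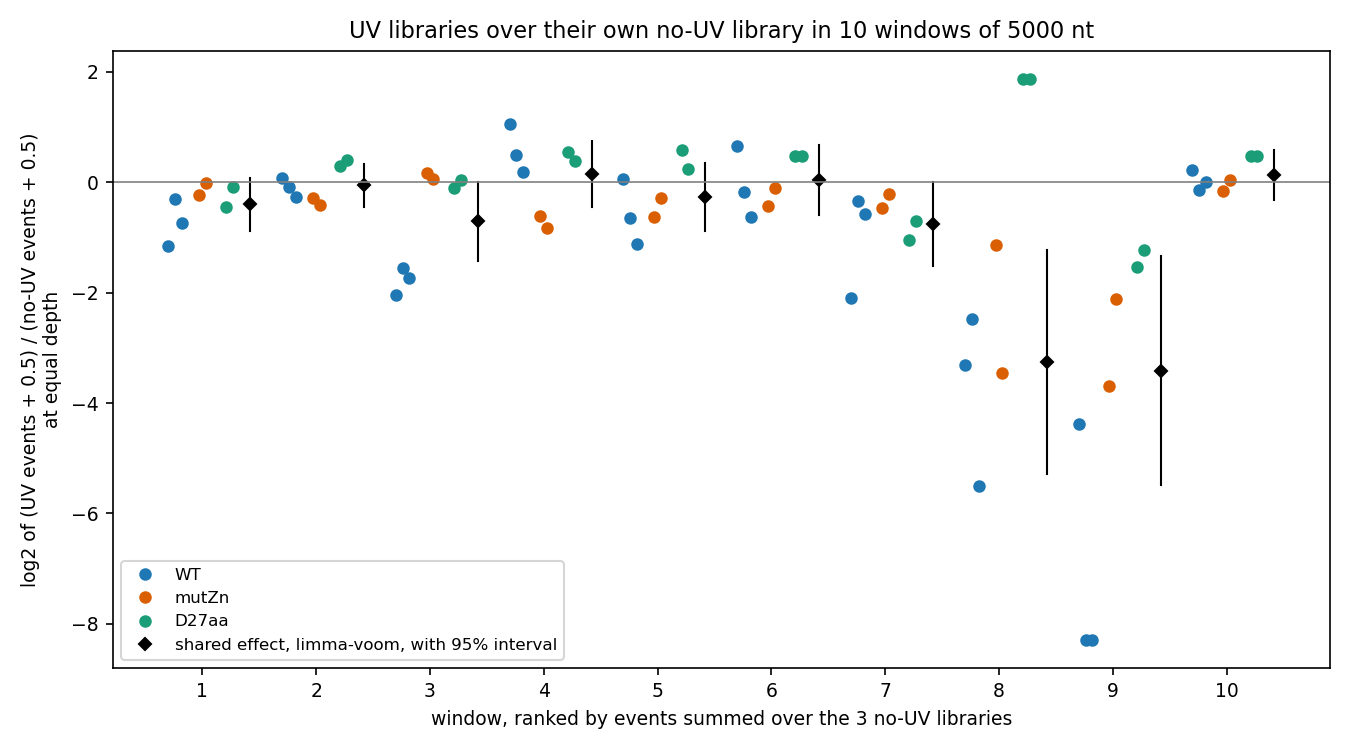
Log2 of UV events plus 0.5 over no-UV events plus 0.5, at equal depth, for each of the 7 UV libraries (points, coloured by protein) in the 10 windows with the most no-UV events, ranked from left to right, with the shared effect and its 95% interval in black. Windows 1, 7 and 9 have all 7 points below 0, WT lies far below 0 in windows 3, 8 and 9, and the other windows scatter around 0.

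The events of WT no-UV 1 in these 2 windows lay on few nucleotides, and single nucleotides of the mitochondrial window also held many. In the chromosome 15 window, 1 nucleotide (72737571) held 70 of the 156 events of WT no-UV 1, and its neighbours 72737572, 72737570 and 72737569 held 44, 28 and 14. There WT UV 2, 3 and 4 had 8, 1 and 1 unthinned events, against 70 without UV, mutZn UV 3 and 4 had 11 and 10, against 3, and D27aa UV 1 and 2 had 55 and 89, against 18. In the chromosome 18 window, nucleotide 73693130 held 87 of 204 events of WT no-UV 1 and had 9, 78 and 6 unthinned events in the WT UV libraries. On the mitochondrial plus strand, nucleotide 2703 held 157 events in WT no-UV 1, the most of any nucleotide in a no-UV library, against 3, 19 and 11 unthinned events in WT UV 2, 3 and 4. mutZn UV 3 and 4 had 18 and 17 there, against 3 without UV, and D27aa UV 1 and 2 had 13 and 18, against 0 without. Nucleotide 36 followed, with 1, 7 and 20 events in the WT UV libraries, against 87 in WT no-UV 1.

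In all, 43 nucleotides held at least 10 events in a no-UV library. WT no-UV 1 held 39 of them, D27aa no-UV 1 held 5, 1 of them shared with WT, and mutZn no-UV 1 held 0. Of the 43, 10 lay on the mitochondrial chromosome and 8 on chromosome 17. Of the 39 in WT no-UV 1, 19 held more events than every WT UV library in unthinned counts, and 15 more than every UV library of any protein. At the scale of windows, of those with at least 5 events in the no-UV library, 27 of 2063 exceeded every unthinned UV library of WT (1.31%), 0 of 1298 that of mutZn and 6 of 375 that of D27aa (1.60%). The UV libraries differ in depth between proteins, which moves these counts. These nucleotides and windows were chosen by their no-UV events, which favours values above the UV libraries, so the counts are a description. Among the WT windows, 120335001 to 120340000 on chromosome 2 (plus strand) held 0, 0 and 0 unthinned events in WT UV 2, 3 and 4, against 12 in WT no-UV 1. That window was chosen after its values were seen.

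Events on nucleotides that held 2 or more were a larger share in each no-UV library than in every UV library of its protein. The WT UV libraries had 5.84%, 3.11% and 1.97% of their events on such nucleotides, against 7.37% in WT no-UV 1. mutZn UV 3 and 4 had 1.02% and 1.10%, against 4.55%, and D27aa UV 1 and 2 had 3.81% and 4.18%, against 4.26%. The means were 3.01% ± 1.77 with UV (SD, n = 7) and 5.40% ± 1.72 without (SD, n = 3), and the difference did not pass (exact two-sided permutation test, p = 0.0833, smallest possible 0.00833). That test moved labels across proteins, so the order within each protein was not tested. Without WT UV 2 the exact p was 0.0238. With every library thinned to 34916 events the means were 2.21% and 3.80% (exact permutation p = 0.15). Within run 1, mutZn UV 3 had 1.02%, against 4.55% in mutZn no-UV 1, and within run 3, D27aa UV 2 had 4.18%, against 4.26% in D27aa no-UV 1. Thinning to the control kept 40.2%, 8.10% and 2.25% of the events of WT UV 2, 3 and 4. It kept 0.566% and 1.04% in mutZn UV 3 and 4 and 9.27% and 8.99% in D27aa UV 1 and 2. The no-UV libraries were not thinned there, and within WT the share fell with the part kept. Whether thinning, or cDNAs counted more than once, set the shares on nucleotides with 2 or more events was not tested. At equal depth, UV libraries also touched more windows than their control, with 50617, 49912 and 49771 against 48535 in WT, 40978 and 41157 against 40024 in mutZn and 25600 and 25539 against 24683 in D27aa.

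**Figure D4:**
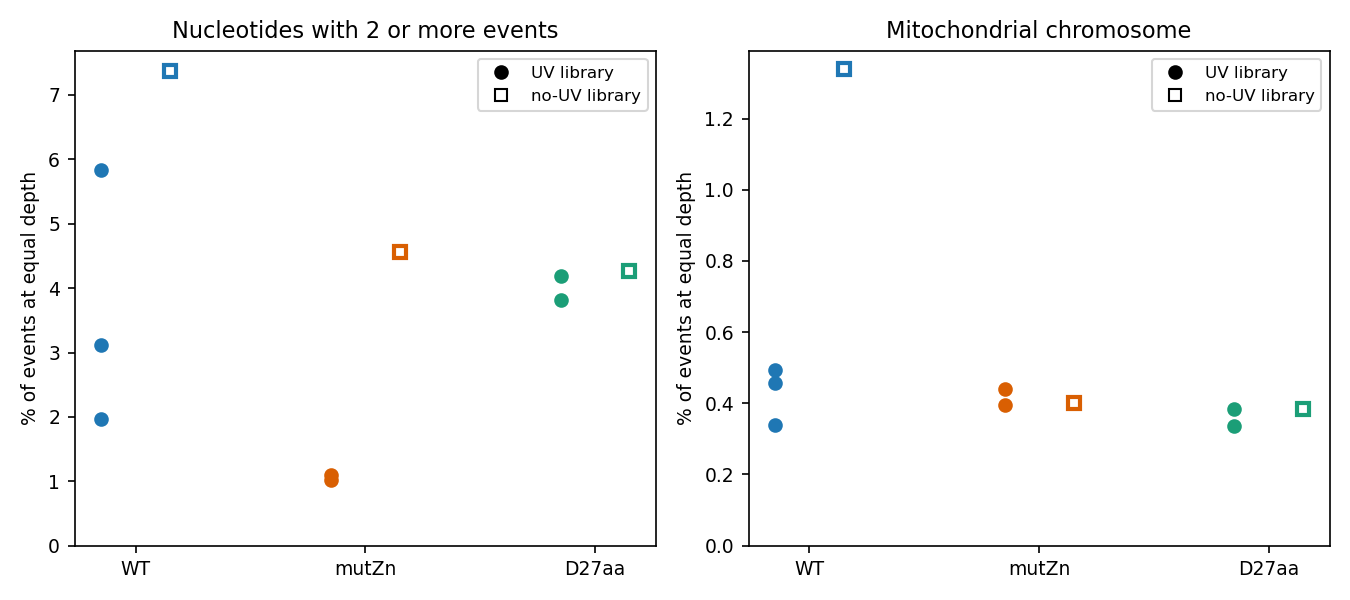
Percentage of events at equal depth that lie on nucleotides with 2 or more events (left) and on the mitochondrial chromosome (right), by protein, with UV libraries as filled circles left of the no-UV library, an open square. The no-UV library lies above every UV library of its protein on the left, and on the right WT no-UV 1 stands at 1.34% against 0.339% to 0.493% in the WT UV libraries. The UV libraries were thinned and the no-UV libraries were not.

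Windows of the opposite kind, with events in every UV library and none without UV, were few and had low counts. No event was found in any of the 3 no-UV libraries in 66065 of the 143794 windows, and 38 of these had an event in all 7 UV libraries. The strongest of the 38 were on the plus strand of chromosome 4 (138995001 to 139000000) and the minus strand of chromosome 16 (30570001 to 30575000), with 22 events each summed over the 7 UV libraries and 0 in the 3 no-UV libraries. Both were chosen after their values were seen. On the chromosome 4 window the WT UV libraries held 3, 8 and 3 events, those of mutZn 2 and 3 and those of D27aa 2 and 1. Of these 7 counts, 1 exceeds the limit of 3 events that a count of 0 allows in a no-UV library. The 3 no-UV libraries together touched 77729 windows, against 80016 to 82218 for the 12 sets of 3 UV libraries with 1 per protein. All 3 no-UV libraries had an event in 7884 windows, against 7496 to 7960 for those sets. No window thus passed as dependent on UV in all 3 proteins at this depth, which does not show that there is none. In none of the tested windows with the highest log2 fold changes did all 3 proteins lie above their controls. The highest, on chromosome 13, minus strand, 64660001 to 64665000, held 36, 0 and 1 events in the WT UV libraries, against 8 without UV. The mutZn UV libraries held 2 and 2, against 2, and the D27aa UV libraries 9 and 22, against 0, with a log2 fold change of 1.46 ± 1.70 (SE, limma-voom adjusted p = 0.836). It was chosen after its values were seen. Others were above their controls in WT and mutZn and below in D27aa. In 126700001 to 126705000 of chromosome 4, plus strand, the counts were 21, 29 and 17 against 11 in WT, 11 and 9 against 7 in mutZn and 6 and 5 against 8 in D27aa, with a log2 fold change of 0.69 ± 0.31 (SE, limma-voom adjusted p = 0.362). In 148305001 to 148310000 of chromosome X, plus strand, they were 14, 11 and 19 against 8 in WT, 17 and 19 against 11 in mutZn and 2 and 5 against 7 in D27aa, with a log2 fold change of 0.68 ± 0.28 (SE, limma-voom adjusted p = 0.362). Both were chosen after their values were seen.

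Whether the UV effect differed between proteins was tested with the interaction of protein and UV in the same 200 windows. limma-voom gave 0 windows at an adjusted p under 0.05 (0.0%), with 14 at an unadjusted p under 0.05 and a smallest adjusted p of 0.192, and limma-trend gave 2. Without WT UV 2 it gave 37. In these fits the spread comes from the UV replicates alone, since each protein has 1 no-UV library that is assumed to vary like them. The 37 calls rest on that assumption.

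The next comparison asked whether events without UV fall on the nucleotides where UV libraries pile up. Each list of peak nucleotides called by the submitters on UV libraries of a protein (2045481 for WT, 2246120 for mutZn and 34759 for D27aa) was read only in the libraries of the other 2 proteins. WT UV 4 and the mutZn and D27aa UV libraries held more events than the score of their own list at 0 peak nucleotides, whereas WT UV 2 and 3 did at 230 and 2277. Of the 2045481 WT peak nucleotides, 25259, 103337 and 595981 had an event in unthinned WT UV 2, 3 and 4. Most of the WT list thus had no event in a WT UV library analysed here. Its further source was not identified. The mean shares with and without UV differed by less than the spread between libraries. On WT peaks the share was 12.6% ± 2.13 with UV (SD, n = 4) and 12.7% ± 2.00 without (SD, n = 2, exact permutation p = 1, smallest possible 0.0667). Of these 2 controls, D27aa no-UV 1 (14.1%) shares positions with WT UV 4, which may be a source of the WT list. The WT list may thus not be independent of that control, here and for the level over 50 nt away. Without D27aa no-UV 1 the share was 1.37 percentage points higher with UV, but this difference mixes proteins. The control left was mutZn no-UV 1 (11.3%), set against UV libraries of mutZn and D27aa. mutZn UV 3 and 4 lay below it (11.0% and 10.6%), and D27aa UV 1 and 2 lay above it (14.4% and 14.5%). On mutZn peaks it was 13.3% ± 0.580 with UV (SD, n = 5) and 13.4% ± 1.62 without (SD, n = 2, exact permutation p = 0.952, smallest possible 0.0476). On D27aa peaks it was 2.86% ± 1.74 with UV (SD, n = 5) and 3.65% ± 1.83 without (SD, n = 2, exact permutation p = 0.762). The mean level over that 50 nt away was 2.19, 2.17 and 2.38 times with UV on the WT, mutZn and D27aa lists, against 2.15, 2.06 and 2.63 times without. Within 15 nt of a mutZn peak the share was lower with UV by 2.06 percentage points (exact permutation p = 0.0476, the smallest possible).

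At single-nucleotide scale the profiles differed in where they were highest. In all 14 readings of a UV library on a list of another protein, the peak nucleotide itself had the highest level of all 121 positions up to 60 nt to either side. In the 6 readings of a no-UV library this held in 3. mutZn no-UV 1 was highest 2 nt downstream of WT peaks, at 12.1% of events against 11.3% on the peak nucleotide. D27aa no-UV 1 was highest 3 nt downstream of mutZn peaks, at 13.2% against 12.3%, and WT no-UV 1 was highest 1 nt upstream of mutZn peaks, at 14.7% against 14.6%. WT no-UV 1 and mutZn no-UV 1 were highest on the nucleotide itself for the D27aa list. D27aa no-UV 1 was highest on the nucleotide itself for the WT list, whose score WT UV 4, the library whose positions it shares, never exceeded. Over 2 to 4 nt downstream, the level on WT peaks was 0.804, 0.803, 0.814 and 0.830 times that of the peak nucleotide in mutZn UV 3 and 4 and D27aa UV 1 and 2, against 1.05 times in mutZn no-UV 1 and 0.857 times in D27aa no-UV 1. The other lists did not separate in the same way. On mutZn peaks it was 0.788 to 0.888 times with UV, against 0.866 in WT no-UV 1 and 1.04 in D27aa no-UV 1. On D27aa peaks it was 0.773 to 0.799 times with UV, against 0.710 in WT no-UV 1 and 0.888 in mutZn no-UV 1. This offset was chosen after the profiles were seen and was not tested. Of 9 tests in this family (3 lists, and the share, the level over 50 nt away and the level over 1 or 2 nt away), the smallest p was that of the last on mutZn peaks, 1.14 times with UV (n = 5) against 1.07 times without (n = 2, exact permutation p = 0.0476, the smallest possible, adjusted p = 0.429).

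**Figure D5:**
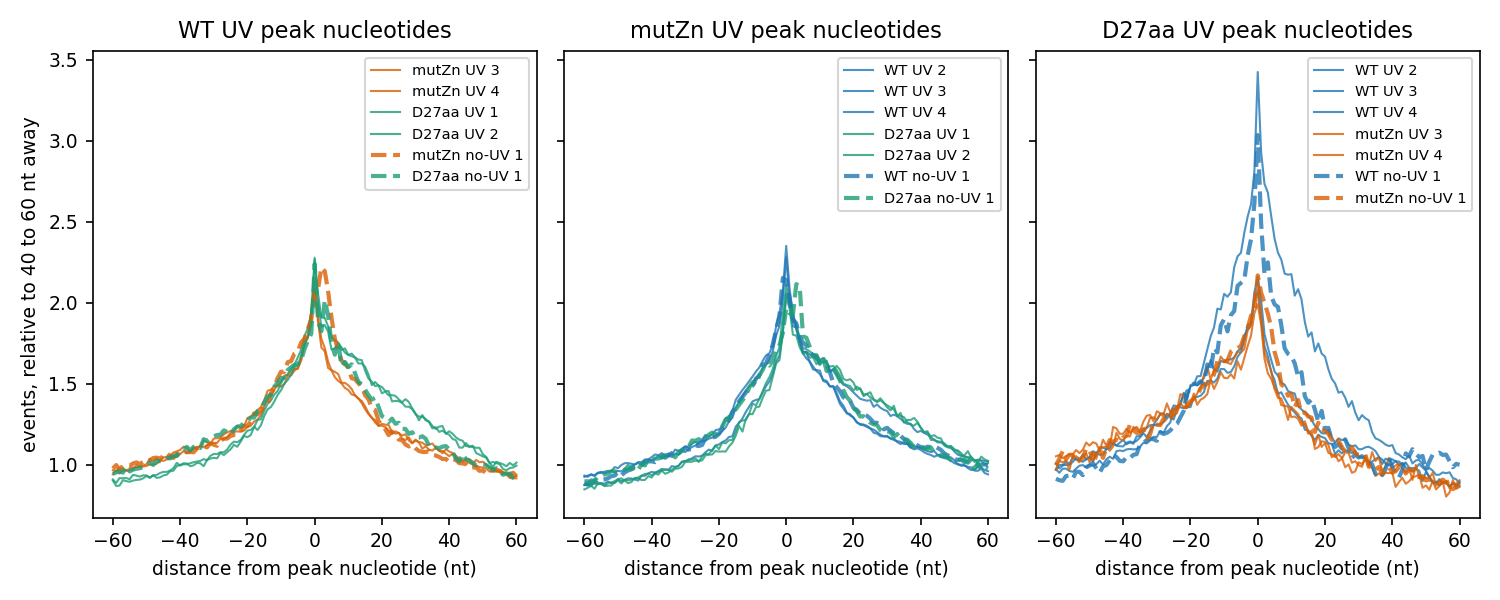
Level of events at each distance from peak nucleotides called on UV libraries of the named protein, in libraries of the other 2 proteins, relative to the mean 40 to 60 nt away. UV libraries are solid lines and no-UV libraries dashed, coloured by protein, and all rise to the peak nucleotide, with mutZn no-UV 1 highest 2 nt downstream of WT peaks and D27aa no-UV 1 highest 3 nt downstream of mutZn peaks. On D27aa peaks WT no-UV 1 and mutZn no-UV 1 are highest on the peak nucleotide.

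The submitters also called peaks on each no-UV library, 3666 nucleotides for WT, 2481 for mutZn and 847 for D27aa. Of these, 68.5%, 54.9% and 34.0% were also peak nucleotides of the UV list of the same protein for WT, mutZn and D27aa, against 33.6%, 25.1% and 15.4% when the no-UV list was shifted by 50 nt. As a share of the UV lists the overlap was 0.123%, 0.0607% and 0.829% for WT, mutZn and D27aa. Most nucleotides of the WT UV list had no event in WT UV 2, 3 or 4, as given above. The 3 no-UV lists shared 41 nucleotides. These lay chiefly in the windows described above on chromosome 17 (plus strand 39983430 to 39984887 and minus strand 80603530 to 80604416) and chromosome 9 (78023155 to 78023205). At 39984421 of the plus strand of chromosome 17, unthinned events were 3, 73 and 139 in WT UV 2, 3 and 4, against 1 in WT no-UV 1, 228 and 159 in mutZn UV 3 and 4, against 3, and 6 and 9 in D27aa UV 1 and 2, against 1. At 80603530 of its minus strand they were 65, 41 and 87, against 8, in WT, 151 and 80, against 2, in mutZn and 51 and 55, against 1, in D27aa. At both nucleotides every unthinned UV library exceeded its own control, which the greater depth of the UV libraries favours. At the chromosome 15 nucleotide above, this held for mutZn and D27aa but not for WT.

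All 13 windows with every UV library below its control had a log2 fold change between -3.41 and -0.40 and an adjusted p between 0.186 and 0.515 (limma-voom). They were chosen by direction after their values were seen. Besides the chromosome 15 window and the pair on chromosome 17, they include 57390001 to 57395000 on the minus strand of chromosome 16, with 22, 53 and 40 events in WT UV 2, 3 and 4, against 89 without UV. There mutZn UV 3 and 4 held 11 and 10, against 17, and D27aa UV 1 and 2 held 9 and 17, against 19. Another was 62415001 to 62420000 on chromosome 11 (plus strand), with 3, 16 and 10 events against 41 in WT, 7 and 8 against 11 in mutZn and 6 and 6 against 7 in D27aa. A part of the mitochondrial plus strand (10001 to 15000) also belonged to them, with 23, 34 and 36 events against 49 in WT, 31 and 34 against 37 in mutZn and 7 and 9 against 13 in D27aa. In D27aa these differences were of few events, and D27aa no-UV 1 is the library that shares positions with WT UV 4.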

How the data were processed

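Positions and the number of cDNAs at each nucleotide were taken from the deposited library files, whose score is, per the file headers, the cDNA count with the strand as its sign (build mm9, Ensembl 59). The score of the deposited peak lists is likewise a cDNA count, and per the file headers peaks were kept with 100 permutations, a neighbourhood of 15 nt and an FDR under 0.05. The WT list names 4 source libraries, while 3 WT UV libraries were analysed here. CASAVA 1.4 appears in the submitters' processing notes. No source used here names the alignment software or says whether duplicates were removed. Groups came from sample titles.

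UV libraries were thinned without replacement with fixed seeds, and events were summed per strand in windows of 5000 nt. Windows were tested with limma-voom (limma 3.58.1, R 4.3.3) and Benjamini-Hochberg adjustment, shares with exact two-sided permutation tests over libraries, without regard to protein. Counting intervals of ratios came from exact binomial intervals (scipy 1.17.1). Fits were tested on simulated data. Named windows were the 10 with the most no-UV events, and, if any had passed, the largest changes shared by all 7 UV libraries. The members and lists were chosen with earlier results of these data known.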

Additional observations from a re-analysis of the deposited data

Results flagged for a closer look

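In 6 of the 10 windows with the most no-UV events, every UV library of a protein lay above its own no-UV library and every UV library of another lay below. The interaction of protein and UV was tested in each and passed in none (limma-voom). For 5795001 to 5800000 on the minus strand of chromosome 19 (D27aa above, mutZn below) the adjusted p was 0.750, and for the adjacent 5800001 to 5805000 (D27aa above, mutZn below) it was 0.809. For the first 5000 nt of the mitochondrial plus strand (mutZn above, WT below) it was 0.192. For 80600001 to 80605000 on the minus strand of chromosome 17 (WT and D27aa above, mutZn below) it was 0.662. For 78020001 to 78025000 on the minus strand of chromosome 9 (D27aa above, mutZn below) it was 0.913. For 73690001 to 73695000 on the minus strand of chromosome 18 (D27aa above, WT and mutZn below) it was 0.872. Each protein has 1 no-UV library, so all UV libraries of a protein are set against the same control. A direction they share can thus come from that library alone. How often such opposite directions occur over all tested windows was not counted. Whether 6 of the 10 windows is more than that background was therefore not tested, and the count is a description.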

How the results depend on the processing

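The count of windows that differ between UV and no UV was 0, and 18 of 25 alternatives also gave 0. It was 1 with another thinning seed, 1 with no thinning, 41 with each position counted once before thinning, which lowers deep libraries by construction, and 6 with the quasi-Poisson fit. Among alternatives added after the data were seen it was 1 with at least 3 events on average and 2 with all libraries thinned to the shallowest, and 0 with the run as a term and with positions counted once after thinning. Leaving out 1 library gave 0 to 2. All called windows were lower with UV. The count with a UV effect that differs between proteins was 0, 2 with limma-trend and 0 to 37 when 1 UV library was left out (all these alternatives were added). That test was not run for the quasi-Poisson fit, without the filter, without protein as a term or for added settings of the shared effect, and could not be fitted without a no-UV library.

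Among the 10 windows, log2 fold changes changed sign in 6, all without passing the threshold except where stated. For 19 minus 5795001 it was 0.15 with trimmed mean scaling, 0.020 with run as a term and -0.21 to 0.092 over left-out libraries. For 17 minus 80600001 it was -2.09 with each position once (adjusted p = 0.0248), -0.036 with run as a term and -0.12 to 0.53 over left-out libraries. For 9 minus 78020001 it was -0.046 with no thinning, -2.95 with each position once (adjusted p = 0.00127), -0.16 with run as a term, -0.14 with positions once after thinning and -0.15 to 0.17 over left-out libraries. For 18 minus 73690001 it was 0.0057 with run as a term and -3.66 to 0.22 over left-out libraries, for 7 minus 67115001 it was -0.66 with each position once, -0.11 with all libraries thinned to the shallowest and -0.017 to 0.23 over left-out libraries, and for M plus 1 it was -1.16 to 0.048 over left-out libraries.

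The difference in share on peak nucleotides (UV minus no UV, percentage points) was -0.0422 on WT peaks, 0.972 on the upper scoring ones, -1.49 within 15 nt, -3.93 with each position once and -1.45 to 1.37 over left-out libraries. On mutZn peaks it was -2.06 within 15 nt and -2.62 with each position once (exact permutation p = 0.0476 each, the smallest possible), 0.290 on the upper scoring peaks and -1.26 to 1.04 over left-out libraries, and on D27aa peaks it was -1.18 within 15 nt, -1.60 with each position once and -2.09 to 0.503 over left-out libraries. For nucleotides with 2 or more events it was -2.96 to -1.40 over left-out libraries, with an exact permutation p of 0.0238 without WT UV 2. For the mitochondrial share it was -0.292 with each position once (exact permutation p = 0.00833, the smallest possible) and -0.464 to 0.0140 over left-out libraries. In all these shares, each position once was counted before thinning, which lowers deep libraries by construction. Where a control was left out on a peak list, UV libraries of 2 proteins were set against a control of 1. Except where stated, the cause of these changes was not tested. No paired analysis was possible because the UV and no-UV groups of a protein share fewer than 2 replicate numbers. Depth is a limit, with 34916 to 88997 events in the controls: 200 of 143794 windows met the filter of 10 events, while 2710 were tested at 3 events and all of them without a filter. So is the number of controls, 1 a protein.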
